A study of Mus musculus with 7 samples.

Results

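The 35 genes of fatty acid activation and beta-oxidation described here cover acyl-CoA synthesis, the carnitine shuttle, and mitochondrial and peroxisomal oxidation. They were chosen by gene symbol and function, and 34 of the 35 had a row among the 22877 rows of the RNA sequencing table. *Acsl6* had no row and was not analysed here. Each library pooled 5 oocytes taken out of secondary follicles of C57BL/6J female mice aged 8 weeks. The 3 *Mfn1*-/- libraries came from *Mfn1* fl/fl mice carrying *Zp3-Cre*, whose promoter is active in growing oocytes, so that *Mfn1* was deleted in the oocyte and not in granulosa cells. The 4 WT libraries came from WT littermates, and their number follows the sample labels, from which the other descriptions of the study differ.

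Fatty acids enter beta-oxidation in a fixed order of steps. Acyl-CoA synthetases join the fatty acid to coenzyme A, the carnitine shuttle carries the acyl group into the mitochondrion, and each turn of the cycle then removes a 2-carbon unit by dehydrogenation, hydration, a further dehydrogenation and thiolysis. Peroxisomes run a parallel cycle with their own enzymes for very long and branched chains, and the electron transfer flavoprotein and its dehydrogenase hand electrons from the acyl-CoA dehydrogenases to ubiquinone. In oocytes this pathway is known as a source of energy that draws on stored lipid and is needed for maturation and early development.

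The table gave 1 value per genotype, the authors' mean of normalized counts. The depth of each library and the spread between libraries are therefore unknown, no difference below was tested, and a gene is described only by its pair of means, given with *Mfn1*-/- before WT unless said otherwise. The log2 fold change is that of the *Mfn1*-/- mean over the WT mean after 0.1 was added to both, which understates differences of genes with low means. Genes past a 2-fold difference on this scale are counted as such. The scale of the normalized counts is not given in the sources used here. Levels, shares and ratios per kilobase of transcript below would change if the counts were already divided by length. The lowest mean in the table, 0.01, was taken as a gene listed at 0. *Mfn1*, the deleted gene, had a mean of 0.0577 and 0.616, a log2 fold change of -2.18. The 16 oocyte marker genes summed to 4927 normalized counts in knockout and 4477 in WT libraries. Only 1 of them, *Sohlh1*, was past 2-fold, with means of 3.68 and 0.105 and a log2 fold change of 4.20. The sums rest on the markers with the highest means, and whether the oocytes of both genotypes were at the same stage of growth was not tested. The 14 granulosa cell markers with a row, of 16, summed to 2.48 and 1.85, most of it *Inha*, without which the sums were 0.607 and 0.892. Of 10 theca and stroma markers, 5 had a row and summed to 0.138 and 0.116. Of 8 blood and endothelium markers, 3 had a row, and *Cd68* gave 7.58 of their 7.76 in *Mfn1*-/- and 0.672 of their 0.88 in WT oocytes, while *Lyz2* was listed at 0 in *Mfn1*-/- oocytes. The part of these markers in the results below was not tested.

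The median of the 34 fatty acid oxidation genes lay close to that of genes averaging at least 1, and 3 genes stood apart. *Acaa1a*, the peroxisomal thiolase, *Etfdh*, the dehydrogenase that passes electrons from the electron transfer flavoprotein to ubiquinone, and *Acadl*, the long-chain acyl-CoA dehydrogenase, had means 6.91, 4.08 and 4.07 times as high in *Mfn1*-/- as in WT oocytes. On the log2 scale with the pseudocount of 0.1 they were the only members past 2-fold, so 3 of 34, or 8.82%, were past 2-fold higher and 0 were past 2-fold lower. Of all genes, 7.61% were past 2-fold, 4.87% higher and 2.75% lower. By the plain ratio of means *Decr1* and *Acads* were past 2-fold as well, which made 5 of the 34, against 12.7% of all genes past 2-fold higher by that ratio. Of the 9 members that averaged at least 1 over the libraries, 1 was past 2-fold higher and 0 lower, against 5.44% and 3.24% of all genes at that level. In 28 of the 34 genes the *Mfn1*-/- mean was the higher of the pair and in 6 the lower, against 56.7% and 42.9% of all genes. Among the 6226 genes that averaged at least 1, 65.4% had the higher mean in *Mfn1*-/- oocytes. The median log2 fold change of the 34 genes was 0.14, beside 0.04 over all genes and 0.16 over these 6226. After that last median was subtracted from every gene, the median of the 34 was -0.02 and 15 of them lay above 0, while the same 3 genes remained past 2-fold. The count of higher means among the members thus depended on whether the shift of expressed genes, those averaging at least 1, was subtracted. Most members lay below that level. Of the 25 members averaging under 1, 21 had the higher mean in *Mfn1*-/- oocytes, and their median log2 fold change was 0.13. The median over the 16651 genes averaging under 1 was 0.01. Since normalized counts are relative, less RNA per oocyte and a smaller share of that RNA cannot be told apart here.

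**Figure D1:**
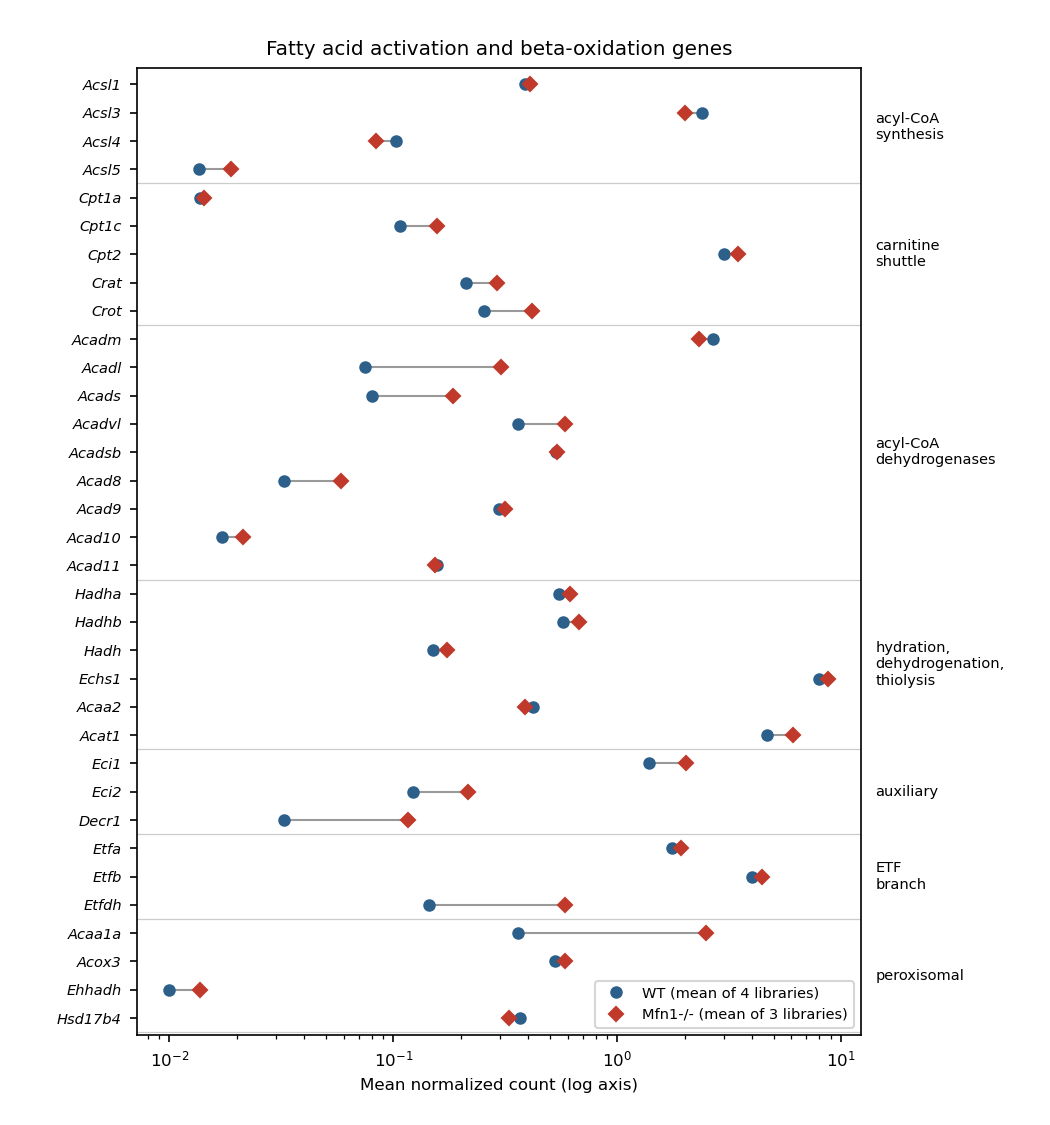
Mean normalized count (log axis) of each of the 34 genes in WT (circles, mean of 4 libraries) and *Mfn1*-/- oocytes (diamonds, mean of 3 libraries), grouped by step. Most pairs nearly touch, and the widest gap is that of *Acaa1a*, from 0.362 to 2.50.

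**Figure D2:**
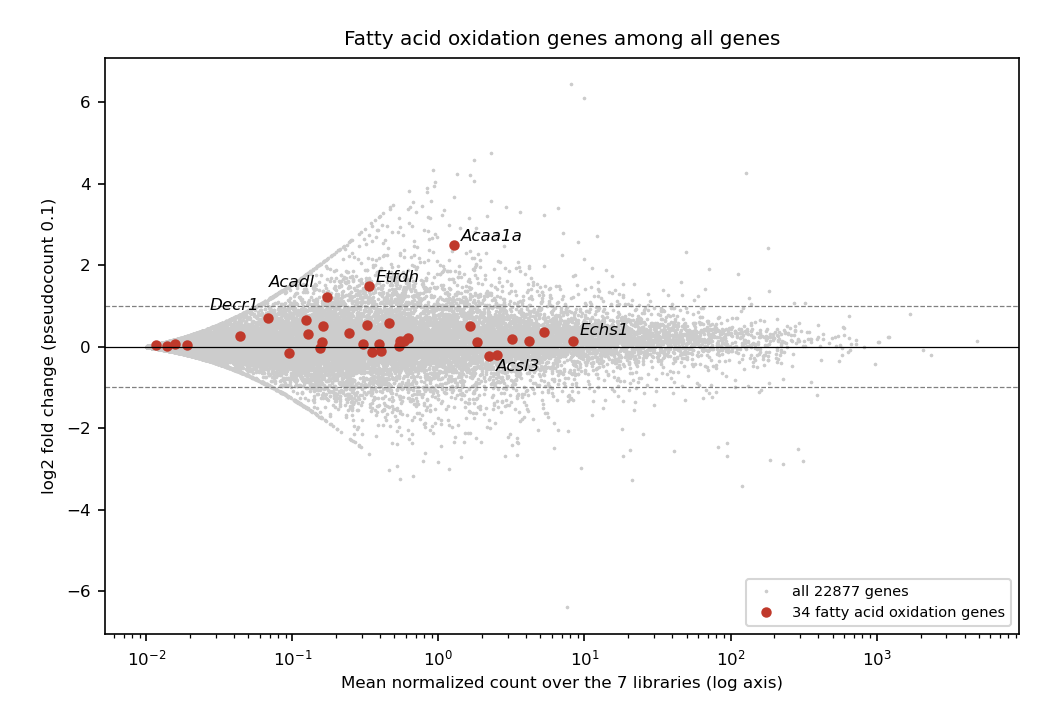
Log2 fold change with a pseudocount of 0.1 against the mean over the 7 libraries (log axis) for all 22877 genes (grey) and the 34 fatty acid oxidation genes (red), with dashed lines at 2-fold. *Acaa1a*, *Etfdh* and *Acadl* are the red points above the upper line, and no red point lies below the lower one.

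Activation of fatty acids was the only step whose summed mean was lower in *Mfn1*-/- oocytes, at 2.51 against 2.88, a ratio of 0.871. With the genotype sums of the whole table made equal, the acyl-CoA dehydrogenases also turned lower, with a ratio of 0.966 in place of 1.06. *Acsl3*, the synthetase of the endoplasmic reticulum and lipid droplets, had means of 2.0 and 2.38 and a log2 fold change of -0.24. That was the lowest value among the 34 genes on this scale, whereas without a pseudocount *Acsl4* was lower, at -0.30 against -0.25. Per kilobase of its longest coding transcript, *Acsl3* made up 84.6% of the summed *Acsl* level in knockout and 86.9% in WT libraries, so the make-up of the family was close in the genotypes. *Acsl1*, the main form of liver, heart and fat, had means of 0.407 and 0.386. *Acsl4*, which prefers arachidonic acid, had means of 0.0838 and 0.103. *Acsl5*, a mitochondrial and reticulum form best known from intestine, had 0.0188 and 0.0135. None of the 4 was past 2-fold, and their log2 fold changes ran from -0.24 to 0.07. At the low means of *Acsl4* and *Acsl5* the pseudocount sets much of this value. Without it *Acsl5* stood at 0.48.

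In all 5 genes of the carnitine shuttle the knockout mean was the higher, against 56.7% of all genes, and 0 were past 2-fold. With the median of expressed genes subtracted, 4 of the 5 lay above 0. *Cpt2*, which reforms acyl-CoA on the inner side of the inner mitochondrial membrane, had means of 3.45 and 2.99 and a log2 fold change of 0.20. Its partner on the outer membrane was barely detected: *Cpt1a*, the liver isoform of the rate-limiting enzyme, had means of 0.0143 and 0.0137, just above the lowest mean. *Cpt1c*, the neuronal isoform, which resides in the endoplasmic reticulum and has little catalytic activity, had means of 0.156 and 0.107. Per kilobase it made up 93.5% of the summed level of both isoforms in knockout and 91.2% in WT libraries. The muscle isoform *Cpt1b* had no row and was not analysed here. The carnitine acyltransferases for shorter chains had larger log2 fold changes than *Cpt2*. *Crot*, the octanoyltransferase of peroxisomes, had means of 0.415 and 0.254 and a log2 fold change of 0.54, the highest of the shuttle. *Crat*, the acetyltransferase, had means of 0.291 and 0.211 and a log2 fold change of 0.33. With the median of expressed genes subtracted, *Crot* stood at 0.38 and *Crat* at 0.17. The -0.15 of *Cpt1a* after that step says little, because at its low means the pseudocount held its log2 fold change at 0.008 beforehand.

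Of the acyl-CoA dehydrogenases named for chain length, 1 of the 4, *Acadl*, was past 2-fold. *Acadm*, for medium chains, had means of 2.32 and 2.68, a log2 fold change of -0.20. The other 3 chain-length enzymes had higher means in *Mfn1*-/- oocytes. *Acadl*, for long chains, had means of 0.304 and 0.0747 and a log2 fold change of 1.21. *Acads*, for short chains, had 0.184 and 0.0802 normalized counts, a ratio of 2.29 and a log2 fold change of 0.66. *Acadvl*, for very long chains, had means of 0.587 and 0.362 and a log2 fold change of 0.57, and 19.5% of its stretches of 75 bases, the read length, are shared with the antisense gene *Dvl2*, at 0.273 and 0.17. Together they shifted the make-up of the set. Per kilobase, *Acadm* held 84.2% of the summed level of the 4 genes in WT and 68.5% in *Mfn1*-/- oocytes, and *Acadl* held 2.51% and 9.59%. *Acadm* remained the highest of the 4 in both genotypes. *Acadl* and *Acads*, whose WT means per kilobase were nearly equal at 0.039 and 0.0396, stood apart in *Mfn1*-/- oocytes at 0.159 and 0.091.

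**Figure D3:**
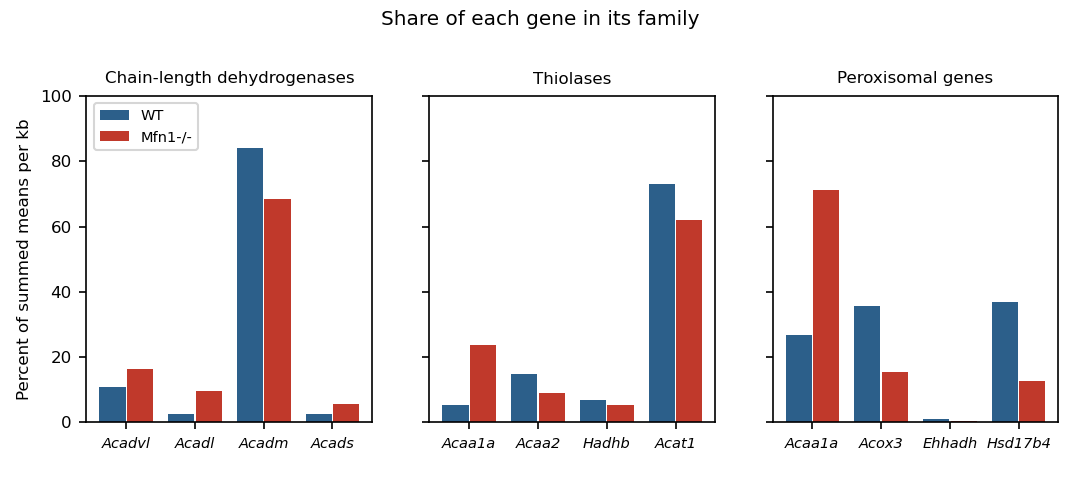
Share of each gene in the summed means per kilobase of its family, in percent, in WT (blue) and *Mfn1*-/- oocytes (red), for the chain-length dehydrogenases, the thiolases and the peroxisomal genes. *Acaa1a* goes from 26.6% to 71.3% of the peroxisomal genes, and *Acadm* from 84.2% to 68.5% of the dehydrogenases.

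The other 5 dehydrogenases of the family differed little. *Acadsb*, which acts on the branched chain from isoleucine, had means of 0.54 and 0.534. *Acad9*, better known as an assembly factor of complex I, had 0.315 and 0.297. *Acad11* had 0.153 and 0.157. Means under 0.1 in both genotypes were found for *Acad8*, the isobutyryl-CoA dehydrogenase of valine breakdown, at 0.0583 and 0.0325, and *Acad10* at 0.0214 and 0.0172. At such means the pseudocount sets much of the log2 fold change, and that of *Acad8* was 0.26 with it and 0.84 without.

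The hydration, hydroxyacyl dehydrogenation and thiolysis steps had 6 genes, and their median log2 fold change was 0.13. In 5 of the 6 the mean was higher in *Mfn1*-/- oocytes, against 56.7% of all genes, and 0 were past 2-fold. With the median of expressed genes subtracted, 2 of the 6 lay above 0 and the median of the step was -0.02. *Echs1*, the short-chain enoyl-CoA hydratase, had means of 8.74 and 7.99 and a log2 fold change of 0.13. *Acat1*, the acetoacetyl-CoA thiolase, which also serves ketone and isoleucine metabolism, had 6.08 and 4.68 and a log2 fold change of 0.37, the largest of this step. *Acaa2*, the mitochondrial thiolase, had a lower mean in *Mfn1*-/- oocytes, at 0.386 against 0.419. *Hadh*, the short-chain hydroxyacyl-CoA dehydrogenase, had 0.173 and 0.15. Per kilobase, *Acat1* held 62.1% of the summed level of the thiolases *Acaa1a*, *Acaa2*, *Hadhb* and *Acat1* in knockout and 73.1% in WT libraries.

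*Hadha* and *Hadhb* encode the alpha and beta subunits of the mitochondrial trifunctional protein, which joins the hydratase, dehydrogenase and thiolase activities for long chains. They lie head to head on chromosome 5, with 85 bases between the gene ends in GENCODE M21. *Hadha* had means of 0.618 and 0.551 and *Hadhb* 0.675 and 0.574, log2 fold changes of 0.14 and 0.20. Per kilobase the listed means gave a ratio of *Hadha* to *Hadhb* of 1.00 and 1.05. The level of *Hadhb*, and with it this ratio, is uncertain. Of the 75-base stretches of its transcripts, 16.4% also occur in the processed pseudogene *Gm13910* on chromosome 2, which had means of 27.7 and 21.5. How the authors' counting assigned such reads is not given in the sources used here.

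The 3 auxiliary enzymes bring the double bonds of unsaturated fatty acids into a form the cycle can use. All 3 had higher means in *Mfn1*-/- oocytes, against 56.7% of all genes. Their median log2 fold change of 0.52 was the highest of the 7 steps. *Eci1*, an enoyl-CoA isomerase, had means of 2.02 and 1.38 and a log2 fold change of 0.52. *Eci2*, an isomerase of mitochondria and peroxisomes, had 0.215 and 0.122 and a log2 fold change of 0.50. *Decr1*, the 2,4-dienoyl-CoA reductase, had 0.116 and 0.0325, a ratio of 3.57 and a log2 fold change of 0.71. With the median of expressed genes taken off, the 3 auxiliary genes still lay above 0, between 0.35 and 0.55.

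In the electron transfer branch the flavoprotein subunits were close to level, and the dehydrogenase that takes their electrons was not. *Etfa* had means of 1.93 and 1.76 and *Etfb* 4.44 and 4.0, log2 fold changes of 0.13 and 0.15, and their ratio per kilobase was 0.279 and 0.282. *Etfdh* had means of 0.587 and 0.144 and a log2 fold change of 1.49. The ratio of *Etfdh* to *Etfa* per kilobase was thus 0.113 against 0.0305. Of the *Etfb* stretches, 39.6% occur in the overlapping transcript *Gm45233*, which had means of only 0.0135 and 0.0115.

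*Etfdh* lies on the minus strand of chromosome 3 of GRCm38 from 79603788 to 79629500. A gene on the opposite strand, *4930579G24Rik*, runs from 79629079 to 79632820 and overlaps the 5′ end of *Etfdh* by 422 bases. It stood at 0.411 and 0.0662, a ratio of 6.21 and a log2 fold change of 1.62, so both genes of this head-to-head pair were past 2-fold in the same direction. The library kit does not mark strand, reads from the overlap cannot be assigned by strand, and 2.71% of the *Etfdh* stretches are shared. *Ppid*, the neighbour 137 bases beyond the 3′ end of *Etfdh*, had means of 2.12 and 1.97.

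Peroxisomal oxidation had the largest difference of any step, and *Acaa1a* made up nearly all of it. The summed mean of its 4 genes was 3.43 and 1.26, a ratio of 2.71, and without *Acaa1a* the sums were 0.926 and 0.901. *Acaa1a*, which catalyses the last step of the peroxisomal cycle, had means of 2.50 and 0.362 and a log2 fold change of 2.49. *Acox3*, the oxidase that starts the cycle for branched chains, had 0.584 and 0.525. *Hsd17b4*, the D-bifunctional protein of the middle steps, had 0.328 and 0.366. *Ehhadh*, the L-bifunctional protein, had 0.0137 in *Mfn1*-/- and was listed at 0 in WT oocytes. The thiolase was thus the only 1 of the 4 past 2-fold. Per kilobase, *Acaa1a* made up 26.6% of the peroxisomal genes in WT and 71.3% in *Mfn1*-/- oocytes, and its ratio to *Acox3* was 0.747 and 4.64. Among the 4 thiolases its share went from 5.25% to 23.7%.

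*Acaa1a* lies on the plus strand of chromosome 9 from 119339676 to 119350299. Its close paralog *Acaa1b*, on the minus strand of the same chromosome from 119148023 to 119157093, shares 9.50% of the *Acaa1a* stretches, so reads could have been divided between them. *Acaa1b* had means of 0.541 and 0.229 and a log2 fold change of 0.96, just short of 2-fold and in the same direction. Of the *Acaa1b* stretches, 24.4% occur in *Acaa1a*, and whether its higher mean came from *Acaa1a* reads was not tested. *Myd88*, an adaptor of Toll-like receptors, overlaps *Acaa1a* by 1736 bases on the opposite strand and had means of 1.99 and 1.16, a log2 fold change of 0.73. *Acadl*, on the minus strand of chromosome 1 from 66830839 to 66863277, shared no 75-base stretch with another gene.

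**Figure D4:**
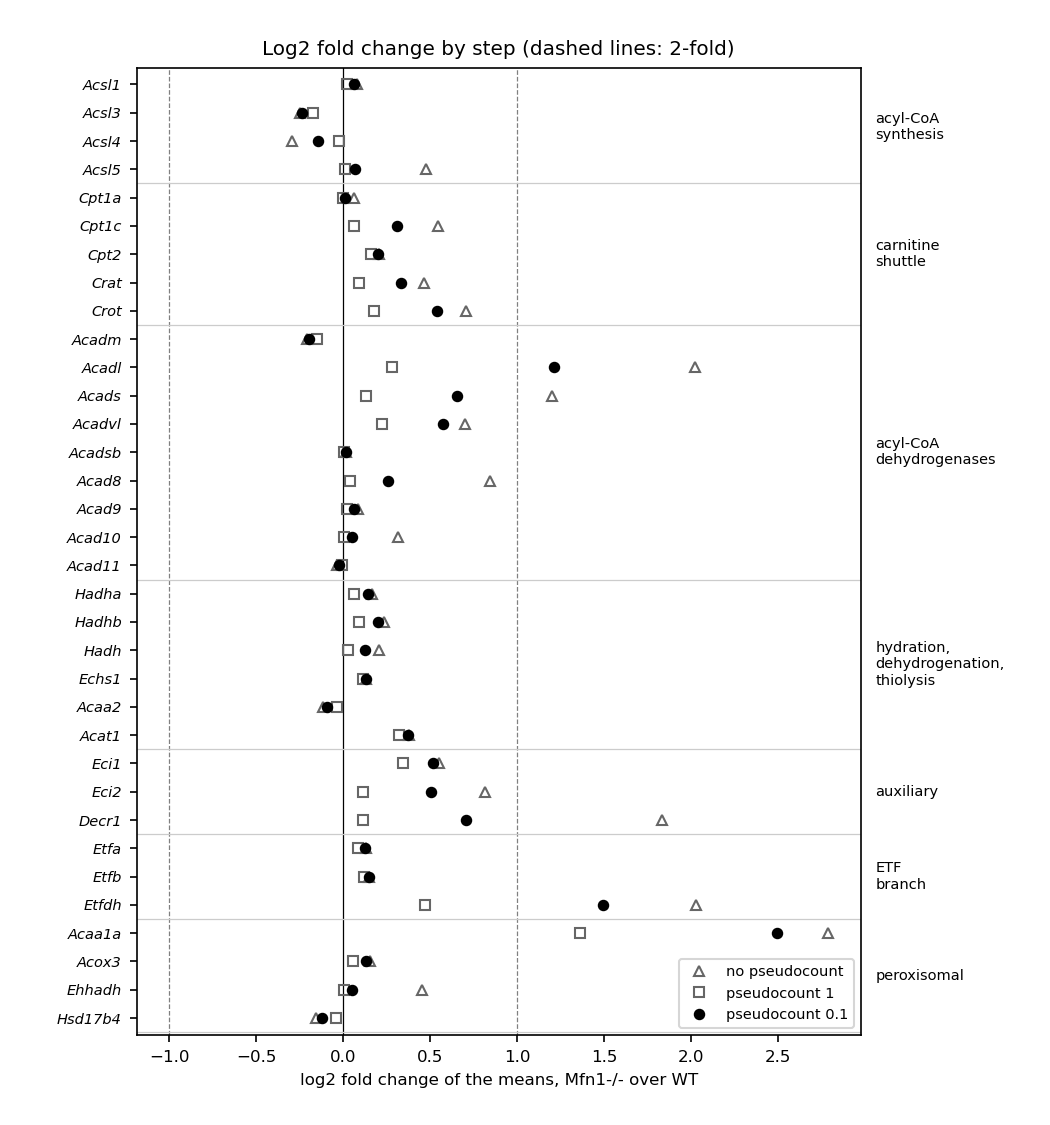
Log2 fold change of the means, *Mfn1*-/- over WT, for each gene with a pseudocount of 0.1 (filled circles), a pseudocount of 1 (squares) and none (triangles), with dashed lines at 2-fold. *Acaa1a* is past 2-fold in all 3, at 1.36 with a pseudocount of 1, whereas *Etfdh* and *Acadl* drop to 0.47 and 0.28.

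The promoters of the 3 genes past 2-fold and the region before the start of *Hadha*, toward *Hadhb*, are shown to let these genes be compared by sequence. Each run is the 250 bases before the RefSeq start on GRCm38.p6, on the strand of the gene, with CCAAT or its reverse complement ATTGG in capitals. The windows are chr9:119341044-119341293 on the plus strand for *Acaa1a*, chr3:79628768-79629017 on the minus strand for *Etfdh*, chr1:66863310-66863559 on the minus strand for *Acadl* and chr5:30154981-30155230 on the minus strand for *Hadha*.
Acaa1a: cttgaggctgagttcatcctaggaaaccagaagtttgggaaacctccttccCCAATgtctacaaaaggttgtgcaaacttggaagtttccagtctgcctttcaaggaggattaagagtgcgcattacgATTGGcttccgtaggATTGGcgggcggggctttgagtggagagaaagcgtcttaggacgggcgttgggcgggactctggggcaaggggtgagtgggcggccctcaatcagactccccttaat
Etfdh: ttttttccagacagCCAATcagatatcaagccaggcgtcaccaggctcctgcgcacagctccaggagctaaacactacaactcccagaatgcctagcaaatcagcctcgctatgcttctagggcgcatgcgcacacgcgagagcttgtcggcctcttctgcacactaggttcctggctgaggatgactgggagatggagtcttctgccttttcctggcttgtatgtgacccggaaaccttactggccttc
Acadl: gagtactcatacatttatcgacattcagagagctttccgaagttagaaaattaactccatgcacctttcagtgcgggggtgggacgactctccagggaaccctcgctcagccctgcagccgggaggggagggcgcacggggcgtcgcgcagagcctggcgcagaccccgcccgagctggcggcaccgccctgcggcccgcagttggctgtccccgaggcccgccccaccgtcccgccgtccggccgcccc
Hadha: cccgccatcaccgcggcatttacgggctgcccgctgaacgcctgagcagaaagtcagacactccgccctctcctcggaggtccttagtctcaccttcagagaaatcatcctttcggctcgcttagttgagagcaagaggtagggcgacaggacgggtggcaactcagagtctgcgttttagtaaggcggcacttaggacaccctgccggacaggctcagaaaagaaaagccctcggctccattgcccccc

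The *Acaa1a* window holds 3 such matches and lies inside the overlap of *Acaa1a* and *Myd88* in GENCODE M21. In the *Etfdh* window 1 match begins 236 bases before the start, and the window, which lies inside the GENCODE M21 span of *Etfdh*, is 61 bases away from the start of *4930579G24Rik*. The *Acadl* and *Hadha* windows hold 0, and the *Hadha* window lies mostly inside the GENCODE M21 span of *Hadha* and ends before *Hadhb* starts. The *Acadl* window is the richest of the 4 in G and C, at 68% with 25 CpG pairs, against 53.6% and 10 for *Acaa1a* and 54.4% and 9 for *Etfdh*.

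Promoter windows of 300 bases, from 250 before to 50 after the start, were found for 29 of the 35 genes, in 32 windows, and motif letters were searched on both strands. CCAAT, the core bound by NF-Y, was in 53.1% of the windows of these genes and in 37.4% of all 32851 windows. AAGGTCA, the half-site of estrogen-related receptors, was in 2 of the 32 windows, or 6.25%, against 4.72% of all windows. These were the windows of *Acadm* and of *Acsl6*, which had no row of expression. TGATGCAA, a core of the ATF4 and CHOP element, was in 1 of the 32 windows, that of *Echs1*, or 3.12%, against 0.895% of all. The DR1 element, a direct repeat of the AGGTCA half-site with a spacer base that PPAR and RXR bind, found in 0.0396% of all windows, and the E-box CACGTG, found in 7.15%, were in 0 of the 32. These matches describe letters and not binding, and a site outside the window would be missed.

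The wider network around these genes was described with lists of 122 further symbols, in which *Mut* and *Mmut* name the same gene. Of the 122, 101 had a row. Of these, 5 were past 2-fold higher and 2 past 2-fold lower, and their median log2 fold change was 0.09. The 5 are 4.95% of the 101, beside 4.87% of all genes past 2-fold higher and 2.75% lower. After subtraction of the median of expressed genes 2 were past 2-fold higher and 4 lower. *Hsd17b10*, a mitochondrial hydroxyacyl-CoA dehydrogenase that also forms part of mitochondrial RNase P, had means of 41.4 and 16.9 and a log2 fold change of 1.29. It shared no 75-base stretch with another gene. It was the only 1 of the 5 that was past 2-fold with a pseudocount of 1.

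Lipid droplet and lipolysis genes had the highest median of the lists, 0.47, with 11 of 13 higher in *Mfn1*-/- oocytes, against 56.7% of all genes. With the median of expressed genes subtracted, 7 of the 13 lay above 0 and the list's median was 0.32. *G0s2*, an inhibitor of the lipase ATGL, had a mean of 0.332 in *Mfn1*-/- oocytes and was listed at 0 in WT oocytes. *Plin5*, a droplet coat protein that tethers droplets to mitochondria, had 0.349 and 0.108, a log2 fold change of 1.11, which was 0.95 after that subtraction and 0.28 with a pseudocount of 1, short of 2-fold in both. *Pnpla2*, which encodes ATGL itself, had 7.31 and 4.72 and a log2 fold change of 0.62, and its activator *Abhd5* had 2.26 and 1.57. The inhibitor, the coat protein and the lipase thus all had the higher mean in *Mfn1*-/- oocytes, with the lipase short of 2-fold. The droplet coat gene *Plin2* had 0.87 and 0.489, and *Plin3* had 2.36 and 2.39.

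Among other peroxisomal oxidation and import genes the knockout mean was the higher in 12 of 15, against 56.7% of all genes, 0 were past 2-fold, and the median was 0.25. With the median of expressed genes subtracted, 10 of the 15 lay above 0 and the list's median was 0.09. *Ech1*, a dienoyl-CoA isomerase, had means of 2.67 and 1.51 and a log2 fold change of 0.78. *Decr2*, the peroxisomal counterpart of *Decr1*, had 0.217 and 0.0886 and a log2 fold change of 0.75. The long-chain transporter *Abcd3* and the import receptor *Pex5* had log2 fold changes of 0.60 and 0.57. The highest of this list was *Acaa1b*, described above with the stretches it shares with *Acaa1a*.

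Genes that supply or gate the pathway showed no common direction. *Slc25a20*, the carnitine-acylcarnitine carrier, had means of 1.00 and 0.717, and the carnitine importer *Slc22a5* 0.138 and 0.139. *Mlycd*, which removes the CPT1 inhibitor malonyl-CoA, had 3.18 and 1.99, a log2 fold change of 0.65. *Acacb*, which makes malonyl-CoA at the mitochondrion, had 0.115 and 0.118 and, at -0.02, the lowest log2 fold change of the malonyl-CoA list. In 4 of the 6 genes of that list the knockout mean was the higher, against 56.7% of all genes. The list's median was 0.20, or 0.04 with the median of expressed genes subtracted, and its highest value was the 0.71 of *Mcat*. Uptake and binding genes had a median of 0.02. *Fabp5*, a fatty acid binding protein, had 38.1 and 46.4, and *Slc27a3*, named after its values were seen since its mean is under 0.1, had 0.163 and 0.0266, a log2 fold change of 1.05. The 11 acyl-CoA thioesterases with a row had a median of 0.21 and the 8 synthetases outside the *Acsl* family one of -0.01, and 0 of either were past 2-fold.

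**Figure D5:**
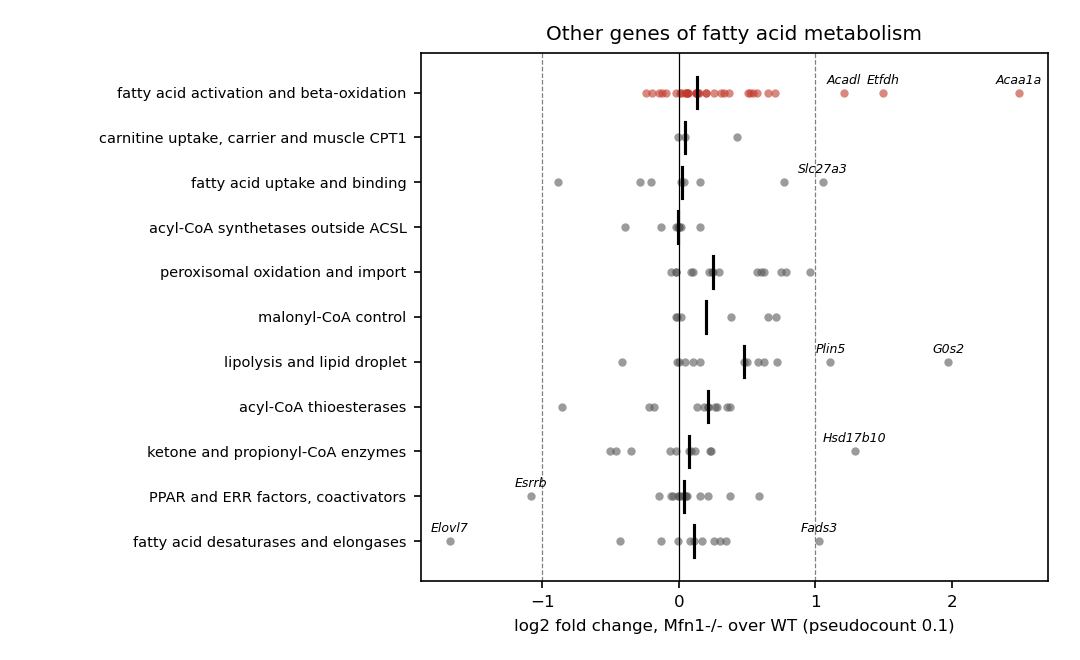
Log2 fold change with a pseudocount of 0.1 of each gene (points) in the 34 fatty acid oxidation genes (top, red) and 10 further lists (grey), with black bars at the medians and dashed lines at 2-fold. Genes past 2-fold are named, and the median of the lipolysis and lipid droplet genes, 0.47, is farthest from 0.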

How the data were processed

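RNA of 5 pooled oocytes per library was amplified as cDNA by the authors with the Smart-Seq2 protocol, made into libraries with the Nextera XT kit and sequenced as paired reads of 75 bases. Per the methods, the authors used Cutadapt for adapters, the FASTX-Toolkit for low-quality reads and STAR for alignment to GRCm38, and then counted reads per gene and normalized them, on an annotation and with a strand setting not given in the sources used here. The signal the authors deposited is averaged normalized counts per genotype, with a total over libraries. In 100% of rows this total came within 1% of what 3 *Mfn1*-/- and 4 WT libraries with these means add up to. The sample labels give these numbers, whereas the series' design text gives 3 per group. The deposited table also holds the authors' own p-values, FDR, ratios and fold changes, which were not used. There were 0 columns of single libraries, so the planned limma fit, the left-out replicates and the replicate block could not be fitted.

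Log2 fold changes were computed with a pseudocount of 0.1, and past 2-fold means beyond 1 on that scale in size. Levels per kilobase use the GENCODE M21 transcript with the longest coding sequence, and would change if the authors had already divided by length. Shared stretches are identical 75-base runs in transcripts of other genes on either strand. Promoters are from RefSeq on GRCm38.p6. Members, lists, motifs and alternatives were chosen with earlier results of these data known. Named genes are *Mfn1*, all members, genes of the other lists past 2-fold with a mean of at least 0.1, and marker counts. Further genes of those lists, and overlapping or similar genes, were named after their values were seen. The code recovered known changes in simulated data, which were planted only in genes averaging at least 1 and without counting error. Recovery at the lower means of most members was not tested. Python 3.11.15, numpy 2.4.6, pandas 2.3.3 and matplotlib 3.10.9 were used.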

Additional observations from a re-analysis of the deposited data

How the results depend on the processing

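Values of single libraries were not used, so no replicate could be left out. No paired analysis was possible because the columns are genotype means and carry no replicate number. The number of fatty acid oxidation genes past 2-fold higher, 3 of 34 as reported, was 5 with a pseudocount of 0.01, 5 with no pseudocount, 1 with a pseudocount of 1, 1 among the 9 genes averaging at least 1, and 5 with a threshold of 1.5-fold. The number past 2-fold lower was 0 in each of these settings. Over all genes the share past 2-fold higher was 10.5% with a pseudocount of 0.01, 12.7% with none and 0.914% with a pseudocount of 1. Among genes averaging at least 1 it was 5.44%, and 12.4% of all genes were past 1.5-fold higher. Both counts thus move with the pseudocount and the threshold. The median of the 34 genes ran from -0.02 after subtraction of the median of expressed genes to 0.22 with no pseudocount. Of the other genes, 9, 10 and 1 were past 2-fold higher with a pseudocount of 0.01, none and 1, against 5 as reported, and 0 were lower with a pseudocount of 1. After the subtraction 2 were higher and 4 lower, and with a mean of at least 1 there were 1 and 0. Making the genotype sums of the table, 142576 and 130160, equal changed every ratio of summed means by the same factor. It brought that of all 34 genes from 1.21 to 1.10 and turned that of the acyl-CoA dehydrogenases from 1.06 to 0.966. Among single genes 18 of 207 recomputed values moved by more than 1.5 times. The 207 include values under the filters on the mean, which leave the value of a gene as it was. Since a pseudocount cannot reverse a difference, these settings do not test the direction of the genes past 2-fold. The depth of each library is unknown, so the counting error of low means such as those of *Acadl* and *Decr1* cannot be given.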

Other observations

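Among fatty acid desaturases and elongases 1 gene was past 2-fold lower and 1 higher. *Elovl7*, an elongase of long saturated chains, had means of 0.284 and 1.13, *Mfn1*-/- before WT, a log2 fold change of -1.68, the lowest of all lists used here. *Fads3*, a desaturase of the sphingoid base, had 0.818 and 0.351, a log2 fold change of 1.03, which was 0.87 after subtraction of the median of expressed genes and 0.43 with a pseudocount of 1, short of 2-fold in both. With a pseudocount of 1 *Elovl7* stood at -0.73. *Elovl1*, an elongase of very long chains, had 31.1 and 24.5. *Scd1* had no row and was not analysed here.

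The transcription factors and coactivators known to control fatty acid oxidation had 1 gene past 2-fold. *Ppara* had 0.0565 and 0.0525, *Esrra* 0.0196 and 0.0147, and *Ppargc1a* 0.0111 and 0.0114, beside a lowest mean of 0.01. *Pparg* had 0.358 and 0.357. *Esrrb*, known from pluripotent and germ cells, was the only factor of the list past 2-fold, with 0.514 and 1.20, a log2 fold change of -1.08. *Rxrb* had the highest log2 fold change of the 15, 0.58.

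The processed pseudogene *Gm13910*, which resembles *Hadhb*, was listed with 27.7 and 21.5 normalized counts, and *Hadhb* with 0.675 and 0.574, not divided by length. Another processed pseudogene, *Gm15285*, had 7.63 and 6.14 and *Etfa* 1.93 and 1.76, and it holds 0.212% of the *Etfa* stretches. Which of these reads came from the parent genes was not tested.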
